A study of Mus musculus with 40 samples.

Results

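The regions that carried H3K27ac, H3K4me1 or both marks in haematopoietic stem and progenitor cells of Flt3-ITD mice are described here. Peaks of the Flt3-ITD H3K27ac list (36008) and H3K4me1 list (94580) were merged wherever they shared at least 1 bp. The resulting 98573 regions were classed by the marks they held and split at 1 kb from the start site of a protein-coding gene. Merging the peaks of all 12 lists of the study gave 184295 regions. All cells came from 21-day-old mice. Flt3-ITD is an internal tandem duplication in the receptor tyrosine kinase FLT3, wild type carries no listed mutation, and the other genotypes were Runx1-het (source name Runxf joined with Vav), the double mutant Flt3-ITD/Runx1-het, NUP98-HOXD13 (a fused gene that joins part of a nuclear pore protein to a HOX protein) and the double mutant of this fusion with Flt3-ITD. The labels do not give the Flt3-ITD allele, the strain or whether animals were pooled. Each mark was mapped by ChIPmentation, in which the transposase Tn5 adds sequencing adapters to immunoprecipitated chromatin, in 3 samples of Flt3-ITD and 3 of wild type. The deposited lists pool the samples of a group, so there is no value per animal and no test between genotypes, and absence of a mark means only that the authors' caller listed no peak there.

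H3K27ac, acetylation of lysine 27 of histone H3, marks promoters and enhancers in use. H3K4me1, monomethylation of lysine 4, marks enhancers more broadly, including ones that carry it without acetylation and are then often called primed, and at active promoters it flanks the start site rather than covering it. In blood progenitors many enhancers of lineage genes carry H3K4me1 before the gene is switched on. The classes below are named by the marks in the lists and not by activity, which was not measured.

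Read depth is unknown from these files, and the lists differ in length and in peak width. The Flt3-ITD H3K27ac list covered 41.7 Mb (peaks 769 bp wide in the median), against 28.0 Mb and 389 bp in wild type, while the Flt3-ITD H3K4me1 list covered 51.7 Mb and that of wild type 35.2 Mb in 73506 peaks. Fold enrichment is the authors' value per peak over control and ranks peaks within a list. The ubiquitous promoters of the positive control list all held H3K27ac in Flt3-ITD (8 with both marks and 4 with H3K27ac only, of 12). Of the 18 genes not expressed in blood, 17 had neither mark at the promoter and 1 (Actn2, an actinin of muscle) had H3K4me1 only. Stem and progenitor genes had both marks at 15 of 25 promoters and H3K27ac only at 4, with Slamf1, Ly6a and Gata2 at H3K4me1 only and Procr, Tek and Ptk7 at neither. In wild type they had both marks at 12 and H3K27ac only at 8. Over all promoters of Flt3-ITD 22.3% had both marks, 20.6% H3K27ac only, 5.54% H3K4me1 only and 51.5% neither.

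In the full lists most distal regions of Flt3-ITD cells held H3K4me1 without acetylation, and most distal acetylated regions also held H3K4me1. Beyond 1 kb of a start site, 61365 of 85708 regions (71.6%) had H3K4me1 only, 16448 (19.2%) had both marks and 7895 (9.21%) had H3K27ac only. Thus 67.6% of distal H3K27ac regions also held H3K4me1 (95% Wilson interval 67.0 to 68.2%, counting error only), whereas 21.1% of distal H3K4me1 regions held H3K27ac (16448 of 77813; 20.9 to 21.4%). Near start sites the balance was different: of 12865 regions 5051 (39.3%) had both marks, 4801 (37.3%) H3K27ac only and 3013 (23.4%) H3K4me1 only. Regions on either side of the 1 kb limit were alike, with both marks at 14.0% of the 543 regions in the last 100 bp inside it and 14.5% of the 574 regions in the first 100 bp outside.

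In wild type a smaller share of distal H3K27ac regions held H3K4me1, 42.5% (41.9 to 43.0%), and the share of H3K4me1 regions with H3K27ac was 20.1% (19.7 to 20.4%). Both shares move with list length. With the 4 lists shortened to their 36008 strongest peaks the first was 44.3% in Flt3-ITD and 33.3% in wild type, and at a −log10 q of at least 5 it was 46.8% and 41.1%, so that most distal H3K27ac regions of Flt3-ITD then lacked H3K4me1. The second was 37.9% in Flt3-ITD and 26.0% in wild type in equal-length lists, and 30.6% and 17.0% at that q. Flt3-ITD was above wild type for both shares in all 3 settings. In the shorter lists the margin was narrower for the first and wider for the second. With all peaks the first share was also above wild type in Runx1-het (57.2%) and NUP98-HOXD13 (68.4%). The double mutants had 64.4% (with Runx1-het) and 71.7% (with NUP98-HOXD13). The first share was thus lowest in wild type, and its height was not particular to Flt3-ITD. The second was 19.5 to 20.3% in these other mutants. The part of peak width was not tested. At start sites the share of H3K27ac regions with H3K4me1 was 51.3% in Flt3-ITD and 26.5% in wild type, or 29.5% and 17.4% in equal-length lists.

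**Figure D1:**
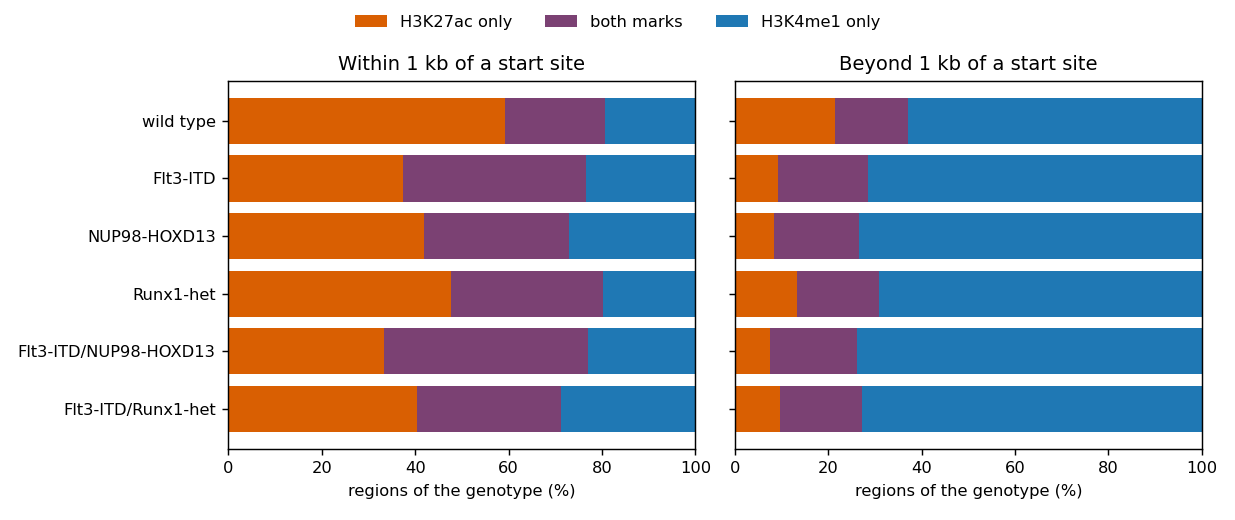
Share of regions with H3K27ac only (orange), both marks (purple) and H3K4me1 only (blue) within 1 kb (left) and beyond 1 kb (right) of a protein-coding start site, for the 6 genotypes; bars are percent of the regions of each genotype, 1 pooled list per mark. In Flt3-ITD H3K27ac only takes 37.3% near start sites and 9.21% beyond them, against 59.3% and 21.4% in wild type.

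Regions with both marks were the widest and strongest of each location. Distal both-mark regions had a median width of 1170 bp, against 444 bp for H3K27ac only and 368 bp for H3K4me1 only, and 27.8% of them joined at least 2 H3K4me1 peaks. Their median H3K27ac fold enrichment was 4.39 against 3.58 in H3K27ac-only regions, and their median H3K4me1 fold enrichment was 5.05 against 3.98 in H3K4me1-only regions. Wide peaks meet a peak of the other mark more easily, and width and class are therefore not independent. A both-mark region also joins peaks of both marks, so merging itself adds width. Its fold enrichment is the highest of its peaks, which favours a higher value where several peaks were joined. The widest distal region, 15642 bp, lay between genes 58.8 kb from Zfp36l2, an RNA-binding protein gene (chromosome 17, 84113482 to 84129123), and had fold enrichments of 28.8 (H3K27ac) and 7.21 (H3K4me1). The next widest lay in an intron of Erg, a transcription factor gene of stem cells (chromosome 16, 95435535 to 95450285), with 28.4 and 11.8. The midpoint of a distal region fell in an intron in 59.8% of cases, in an exon in 2.77% and between genes in 37.4%, with little difference between classes.

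The stronger a peak of either mark, the more often the other mark was there. In the weakest decile of distal H3K4me1 regions 8.13% held H3K27ac, and in the strongest decile 59.0% did (57.9 to 60.1%). For H3K27ac regions the share with H3K4me1 went from 49.8% in the weakest to 89.8% in the strongest decile. Even in the strongest decile of H3K4me1 regions, then, many were outside the H3K27ac list. The 5 strongest of these H3K4me1-only regions lay nearest to Ccser1 (12.3), Dusp6, an ERK phosphatase gene (11.9), Itgb3, the platelet integrin beta subunit gene (11.7), Klhl6 (11.6) and Anxa3 (10.8). Of these, the Dusp6 region, 147 kb away, held H3K27ac of 4.01 in wild type and the Anxa3 region 3.35, and the other 3 had no H3K27ac peak in wild type.

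**Figure D2:**
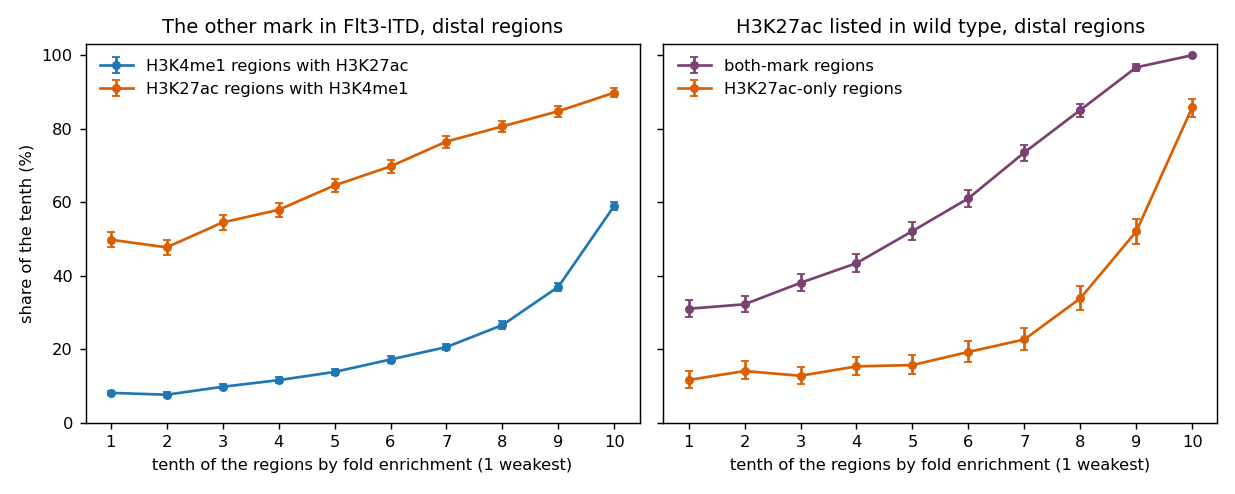
Share of distal Flt3-ITD regions in each decile by fold enrichment (1 weakest, 10 strongest) that hold the other mark in Flt3-ITD (left) or H3K27ac in wild type (right); bars are 95% Wilson intervals. H3K4me1 regions with H3K27ac go from 8.13% to 59.0%, and both-mark regions with wild-type H3K27ac from 31.0% to 99.9%.

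The strongest distal H3K27ac regions often sat at starts of genes that do not code for protein. Of the 10 strongest, 6 lay within 1 kb of the start of a non-coding gene, and of the 100 strongest 32 did, against 5.83% of all distal regions with H3K27ac only and 6.13% of those with both marks. All 100 were also in the 5 other H3K27ac lists, and 92 held H3K4me1. The top both-mark region (68.2) was at the start of 1810026B05Rik, 11.2 kb from Chd2, and the next (64.7, X chromosome) at the start of Jpx, a non-coding RNA gene beside Xist, with Gm26992 as the nearest coding gene. Others were near Cpsf6 (61.8), Slfn3 (61.8) and Anp32e (58.2). The strongest distal regions with H3K27ac only lay near Zfp958 (67.6), Rab10 (58.3), Mef2d (49.6), Tuba1c (40.7) and Ubash3b (37.2). Distal here means far from coding starts, and H3K27ac regions at a non-coding start within 1 kb held H3K4me1 about as often (68.7%, 66.2 to 71.0%) as those with no transcript start nearby (67.5%).

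Around start sites the 2 marks took complementary places. H3K27ac summits were densest in the 200 bp after the start, 9005 per kb of window over all start sites, and fell to 651 per kb between 1 and 5 kb downstream. H3K4me1 summits were sparsest there, 745 per kb, and reached 3335 per kb at 1 to 5 kb downstream and 1621 per kb at the same distance upstream. Within a both-mark region the strongest summits of the 2 marks were a median of 871 bp apart near start sites and 240 bp apart beyond them, and 12.9% and 44.1% of regions had them within 200 bp. The strongest points of the 2 marks thus lay closer together in distal regions than near start sites. Both-mark regions near start sites were also wider, 2355 bp in the median against 1170 bp, and the part of width was not tested. Wild type had the same layout, with 8565 H3K27ac and 560 H3K4me1 summits per kb in the first 200 bp.

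**Figure D3:**
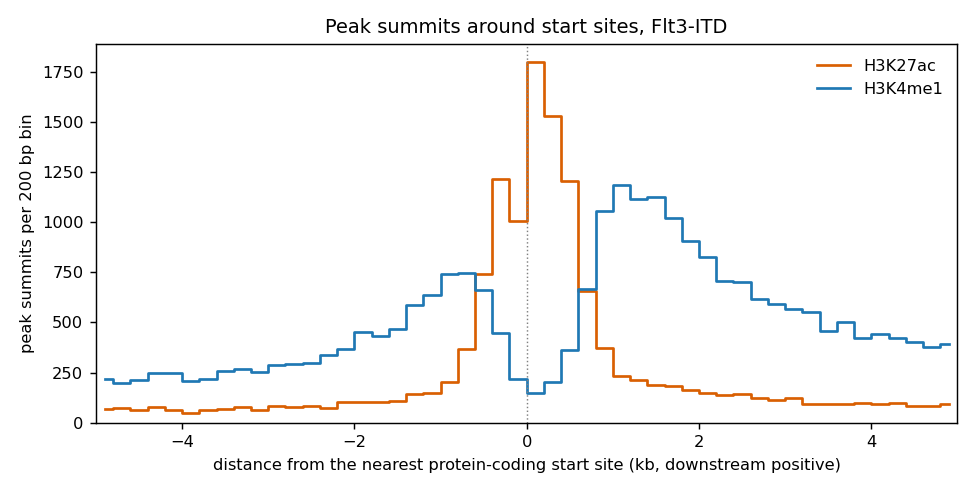
Number of Flt3-ITD peak summits per 200 bp bin by distance from the nearest protein-coding start site (kb, downstream positive), for H3K27ac (orange) and H3K4me1 (blue). The H3K27ac bin from 0 to 200 bp holds 1801 summits and the H3K4me1 bin 149, and H3K4me1 rises on both sides.

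Promoter sequence went with the marks. The table of RefSeq promoters (build GRCm38.p6) gave 20006 distinct sequences of 300 bp for 16385 genes of the annotation, from 250 bases before to 50 after the start. CpG dinucleotides, which are depleted in most of the genome and kept in CpG islands, had a median of 23 in promoters with H3K27ac only, 21 with both marks, 10 with H3K4me1 only and 5 with neither. The observed-to-expected CpG ratio was at least 0.6 in 80.6%, 74.2%, 41.2% and 25.3% of them, and in 49.4% of all promoters. Sequences of 6 genes show the range, each as the 250 bases before the start on the gene's own strand, with CG pairs in capitals. Hlcs (holocarboxylase synthetase; chr16:94313564-94313813, minus strand) had the second strongest acetylation of the proximal H3K27ac-only regions, and Unk (a zinc finger RNA-binding protein; chr11:116030066-116030315, plus) the strongest of all both-mark ones. Flt3 (chr5:147400490-147400739, minus) is the mutated gene, and Mpo (myeloperoxidase; chr11:87793534-87793783, plus) a both-mark promoter poor in CpG. Elane (neutrophil elastase; chr10:79886062-79886311, plus) had H3K4me1 only and Hoxd13 (chr2:74667975-74668224, plus) neither mark.
Hlcs: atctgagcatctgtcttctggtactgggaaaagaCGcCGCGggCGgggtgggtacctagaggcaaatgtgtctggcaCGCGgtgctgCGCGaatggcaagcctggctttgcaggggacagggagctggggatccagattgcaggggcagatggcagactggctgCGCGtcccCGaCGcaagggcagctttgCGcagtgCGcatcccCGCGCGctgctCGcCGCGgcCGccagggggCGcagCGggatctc
Unk: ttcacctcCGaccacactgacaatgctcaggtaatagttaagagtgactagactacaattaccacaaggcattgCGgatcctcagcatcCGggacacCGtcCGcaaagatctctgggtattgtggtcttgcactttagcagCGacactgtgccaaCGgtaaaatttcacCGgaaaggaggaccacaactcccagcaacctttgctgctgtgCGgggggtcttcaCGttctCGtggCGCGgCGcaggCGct
Flt3: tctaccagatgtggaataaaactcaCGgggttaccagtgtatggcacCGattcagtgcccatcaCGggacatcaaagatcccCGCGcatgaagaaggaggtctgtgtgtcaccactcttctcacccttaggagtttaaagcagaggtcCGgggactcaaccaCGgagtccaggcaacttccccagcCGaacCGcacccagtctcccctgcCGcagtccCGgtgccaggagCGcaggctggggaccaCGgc
Mpo: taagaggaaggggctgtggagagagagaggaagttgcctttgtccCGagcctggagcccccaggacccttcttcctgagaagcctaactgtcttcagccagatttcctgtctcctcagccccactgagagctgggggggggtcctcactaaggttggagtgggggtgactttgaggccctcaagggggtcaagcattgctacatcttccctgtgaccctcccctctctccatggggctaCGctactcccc
Elane: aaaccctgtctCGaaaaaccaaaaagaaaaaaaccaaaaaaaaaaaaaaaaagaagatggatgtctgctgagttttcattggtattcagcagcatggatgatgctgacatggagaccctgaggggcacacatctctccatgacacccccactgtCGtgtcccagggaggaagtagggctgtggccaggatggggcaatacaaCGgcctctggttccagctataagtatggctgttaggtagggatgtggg
Hoxd13: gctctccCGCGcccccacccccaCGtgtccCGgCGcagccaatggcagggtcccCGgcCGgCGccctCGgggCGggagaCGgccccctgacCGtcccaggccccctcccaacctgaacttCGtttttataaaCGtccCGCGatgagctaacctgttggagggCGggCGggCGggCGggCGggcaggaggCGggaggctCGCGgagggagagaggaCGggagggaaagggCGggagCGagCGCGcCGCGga
These 250 bases held 23 CG pairs at Hlcs, 15 at Unk, 13 at Flt3, 2 at Mpo, 3 at Elane and 31 at Hoxd13. H3K27ac was thus listed within 1 kb of the start at Mpo, whose 250 bases were poor in CpG, and the CpG-rich Hoxd13 promoter had no mark. Whether the Mpo peak covers those bases was not examined.

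Short motifs of promoter-binding factors differed in frequency between the classes. The ETS motif CCGGAAG, searched on both strands, was in 20.9% of H3K27ac-only and 22.8% of both-mark promoters, in 7.66% with H3K4me1 only and 3.68% with neither, and in 11.9% of all. The NRF1 motif was in 11.5%, 11.7%, 6.40% and 2.29%, and in 6.63% of all, and the SP1 motif GGGCGG in 69.7%, 61.2%, 46.3% and 32.4%, and in 48.0% of all. These 3 contain CG and were, like CpG, more frequent in promoters with H3K27ac than in the others. Only SP1 had the order of the CpG medians over all classes. The part of base composition was not tested. The TATA box TATAAA ran the other way, at 5.38%, 6.94%, 10.7% and 17.5% (12.1% of all). The myeloid motif of PU.1, GAGGAAGT, was in 4.78% of H3K4me1-only and 3.99% of both-mark promoters, against 2.80% with H3K27ac only and 2.54% with neither (3.03% of all). The motif of interferon regulatory factors (IRF) was in 3.89% of both-mark and 3.88% of H3K4me1-only promoters. It was in 2.95% with H3K27ac only and 3.38% with neither (3.41% of all), and the intervals of both marks and neither overlapped. Motifs of CEBP, GATA factors, AP-1 and STAT were most frequent with neither mark, and that of RUNX with H3K4me1 only. CEBP (TTGCNNAA) was in 11.7% of promoters with neither mark and 11.1% with H3K4me1 only, against 8.81% with both and 7.11% with H3K27ac only (10.0% of all). For the motif of GATA factors, AGATAA, these values were 12.7%, 9.38%, 6.41% and 5.04% (9.39% of all), for AP-1 (TGANTCA) 9.33%, 6.49%, 4.84% and 4.05% (6.99%) and for RUNX (TGTGGTT) 5.46%, 5.59%, 4.04% and 3.27% (4.65%). The STAT motif TTCNNNGAA was in 6.58 to 8.58% of each class (7.75% of all).

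By gene, 4875 of 21840 protein-coding promoters had both marks within 1 kb in Flt3-ITD (22.3%), 4508 H3K27ac only (20.6%), 1209 H3K4me1 only (5.54%) and 11248 neither. Promoters with H3K27ac therefore numbered 9383 (43%), and 8253 of these had it in wild type too. Genes with both marks at the promoter had a distal both-mark region within 50 kb in 40.8% of cases, those with H3K4me1 only in 32.6%, those with H3K27ac only in 29.9% and unmarked ones in 9.92%. Acetylated promoters without H3K4me1 were thus less often accompanied by a distal both-mark region than H3K4me1-flanked ones. The strongest were Clk1 (74.1), a splicing kinase gene, Hlcs (73.3), Coq7 (68.7), of coenzyme Q synthesis, Zcchc9 (64.0) and Prpf4 (59.0), a spliceosome gene. The strongest with both marks were Unk (95.8), Usp38 (83.1), Ranbp2 (79.0), Cmas (78.6) and Zfp36l2 (77.9), and the strongest H3K4me1-only proximal regions lay near Vsir (10.5), Lpp (10.3), Mmrn1 (8.47), Ahi1 (8.24) and Copz1 (8.10).

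Wild-type marks differed between the classes, in lists that did not choose them. Of the distal both-mark regions of Flt3-ITD, 49.3% had both marks in wild type, 24.6% (4054) had H3K4me1 only, 1976 H3K27ac only and 14.1% neither. The regions without wild-type H3K27ac are the 24.6% and the 14.1%, beside 40.8% of all 34195 Flt3-ITD H3K27ac regions, and most of them held H3K4me1 in wild type. Of the distal H3K4me1-only regions 58.7% had neither mark in wild type, 33.3% H3K4me1 only, 3.35% H3K27ac only and 4.61% (2829) both, and over all H3K4me1 regions 53.5% had no wild-type H3K4me1 peak. H3K27ac-only distal regions had neither mark in wild type in 60.1%, against 26.3% of the proximal ones. Regions of either mark alone thus recurred less often than both-mark regions. The latter are also wider, beyond 1 kb 1170 bp in the median against 444 bp (H3K27ac only) and 368 bp (H3K4me1 only). A wide region meets a wild-type peak more easily, and the part of width was not tested.

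**Figure D4:**
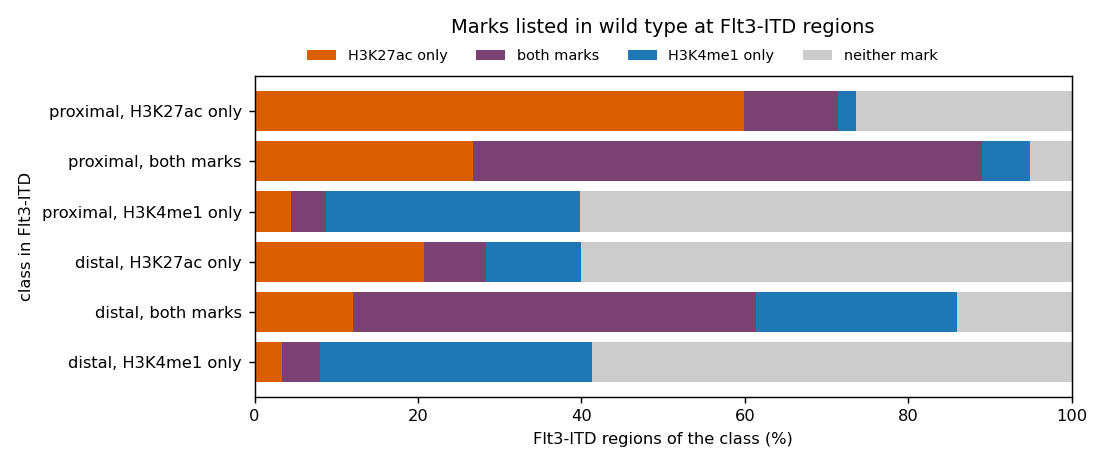
Marks listed in wild type at the Flt3-ITD regions of each class and location, in percent of the class. Distal both-mark regions keep at least 1 mark in most cases (14.1% have neither), whereas 58.7% of distal H3K4me1-only and 60.1% of distal H3K27ac-only regions have neither.

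Presence in wild type depended on strength. Among distal both-mark regions 31.0% of the weakest decile by H3K27ac fold enrichment had H3K27ac in wild type, and 1643 of 1644 in the strongest decile did. The exception was a region in an intron near Ect2l (chromosome 10, 18174910 to 18179015) with 14.7 for H3K27ac and 8.47 for H3K4me1 in Flt3-ITD and 4.43 for H3K4me1 alone in wild type. Others with both marks in Flt3-ITD and H3K4me1 only in wild type lay near Btc (8.51 for H3K27ac), Ncf4, a gene of the phagocyte oxidase (8.17), Lemd2 (7.99) and Notch3 (7.99). With no mark in wild type the strongest lay near Rere (8.68), Uck2 (8.44), Bptf, a chromatin remodeller gene (8.19), Mkln1 (8.17) and Rab44 (7.95). In the other direction, the strongest H3K4me1-only regions with both marks in wild type lay near Dusp6 (11.9 for H3K4me1), Anxa3 (10.2), Kat6a, an acetyltransferase gene (10.2), Crybb3 (9.97) and Parp12 (9.97), with wild-type H3K27ac of 3.68 to 5.99. Apart from the Ect2l region, no distal both-mark region without wild-type H3K27ac exceeded 8.68.

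Across the other genotypes the distal both-mark regions of Flt3-ITD had both marks in 63.8% of cases in Flt3-ITD/Runx1-het, 63.5% in Flt3-ITD/NUP98-HOXD13, 56.1% with NUP98-HOXD13 alone and 51.5% with Runx1-het alone, beside 49.3% in wild type. The 2 double mutants with Flt3-ITD had the higher values. They also have the longest H3K4me1 lists, with 117039 peaks in Flt3-ITD/Runx1-het and 95907 in Flt3-ITD/NUP98-HOXD13. The list of NUP98-HOXD13 alone was nearly as long as that of its double mutant, with 95249 peaks. The part of list length was not tested for the double mutants. H3K27ac was listed in all 5 other genotypes at 38.7% of distal both-mark regions and in none at 10.5%, against 12.3% and 41.6% of distal H3K27ac-only regions. H3K4me1 was listed in all 5 others at 52.7% of distal both-mark and 11.7% of H3K4me1-only regions.

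Distal both-mark regions were spread over many genes. Within 50 kb of their start sites 4843 genes (22.2%) had at least 1, 590 at least 5 and 9 at least 20. Foxp1, a forkhead transcription factor gene, and Map7, a microtubule protein gene, had 27 each, followed by Sgms1 (26), Pik3r1, the regulatory subunit of PI3 kinase (23), Fam107b and Runx1 (22 each), Cd47, the gene of a surface signal against phagocytosis (21), Fchsd2 and Fli1 (20 each) and Rbm47 (19). By H3K4me1-only regions Foxp1 again came first with 75, then Fam107b (49), Gcnt2 (48), Pde4d (45), Cd47 and Psd3 (44 each), Runx1 (42), Dock10 (41), Map4k4 (40) and Irf2 (39). Genes with many start sites or long introns collect more regions, and no count was scaled for that. Of the 27 Foxp1 regions 16 had wild-type H3K27ac and 23 wild-type H3K4me1, and of the 22 at Runx1 14 and 15.

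At Flt3 itself the promoter had both marks, with 38.4 for H3K27ac and 4.29 for H3K4me1 in Flt3-ITD and 23.5 and 5.59 in wild type. Inside the gene lay 5 both-mark regions, of which the strongest were at 6.09 kb from the start (chromosome 5, 147387160 to 147394397; 23.5 for H3K27ac) and at 31.4 kb (147362459 to 147369059; 18.8). All 5 had both marks in wild type, with 17.2 and 20.2 for H3K27ac at those 2, and H3K27ac in all 6 genotypes. Between them were 3 intron regions with H3K4me1 only in Flt3-ITD and H3K27ac only in wild type, of 3.68 to 5.99. Nup98 had an H3K27ac-only promoter, and Hoxd13 had neither mark and 1 distal H3K4me1-only region.

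Near genes of the 16 lists the share of distal H3K4me1 regions with H3K27ac was set beside the 20.9% (11568 of 55393) of regions near any gene. It was 38.3% near erythroid genes (18 of 47; 25.8 to 52.6%), 33.3% near megakaryocyte genes (40 of 120; 25.5 to 42.2%), 32.1% near interferon response genes (26 of 81; 22.9 to 42.9%), 29.9% near STAT5 targets (58 of 194; 23.9 to 36.7%) and 28.4% near stem and progenitor genes (108 of 380; 24.1 to 33.2%). The intervals of these 5 lie above the value for all genes, though regions near 1 gene are not independent and intervals over them are too narrow. At a −log10 q of at least 5, where all genes had 30.2%, only the interval of interferon genes lay above it (12 of 21, 57.1%; 36.5 to 75.5%), and those of the other 4 lists spanned it. In the full lists T and NK cell (23.0%), monocyte (22.5%), MAPK feedback (22.4%), granulocyte (22.4%), cytokine receptor (22.0%) and dendritic cell genes (21.0%) were close to the 20.9% near any gene. The share was 19.5% near mast cell, basophil and eosinophil genes, 18.3% near ubiquitous genes, 18.2% near genes not expressed in blood and 15.4% near B lymphoid genes, all with intervals across 20.9%. HOX and cofactor genes had 7.84% (4 of 51; 3.09 to 18.5%), below it, but 14.3% (11 of 77; 8.17 to 23.8%) when regions were linked within 100 kb, where all genes had 21.2%, and 18.2% (2 of 11) at a −log10 q of at least 5, so that the difference was lost in both.

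**Figure D5:**
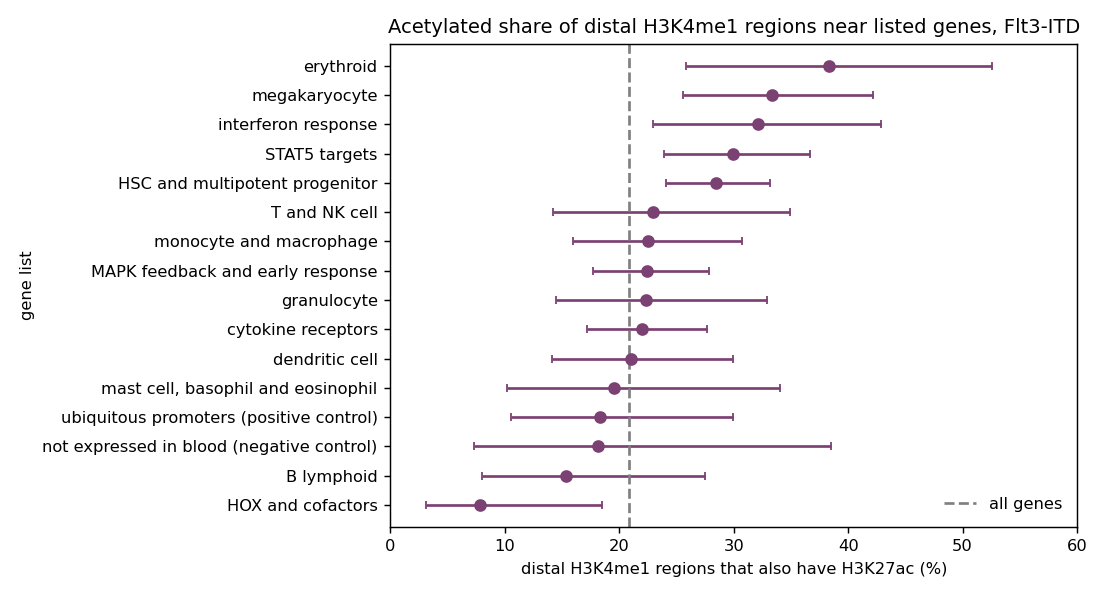
Percent of distal Flt3-ITD H3K4me1 regions within 50 kb of the genes of each list that also hold H3K27ac, with 95% Wilson intervals; the dashed line is the value near any gene, 20.9%. Erythroid genes stand highest at 38.3% and HOX and cofactor genes lowest at 7.84%.

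STAT5 targets, which include feedback inhibitors of cytokine signalling, had 18 of 58 both-mark regions with no mark in wild type (31.0%), against 14.2% near any gene. Of the other lists only mast cell genes had a higher share, 3 of 8. Socs2, a STAT5-induced inhibitor of receptor signalling, gave 7 of the 18 and Ccnd3, a cyclin gene, 5. The remainder lay near Socs1 (2) and Pim1, Pim2, Id1 and Spred1 (1 each). The high share thus came mostly from Socs2 and Ccnd3 and was not spread over the list. Around Socs2 there were 9 both-mark regions from 1.93 to 42.2 kb from a start, with H3K27ac of 2.50 to 10.9 and H3K4me1 of 2.60 to 7.19. H3K27ac was listed at 2 of the 9 in wild type, 2 in Runx1-het, 8 in Flt3-ITD/Runx1-het, 1 in NUP98-HOXD13 and 3 in its double mutant with Flt3-ITD. H3K4me1 was listed at 1, 3, 7, 2 and 7 of them in the same order. H3K4me1 was thus listed at more of the 9 regions in the double mutants with Flt3-ITD than in genotypes without it. The Socs2 promoter had H3K27ac only in Flt3-ITD (15.4), in both double mutants and also in NUP98-HOXD13, and neither mark in wild type and Runx1-het.

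Cish, another STAT5-induced inhibitor, differed in its wild-type state. Of its 4 both-mark regions, 9.25 to 15.2 kb from the start, 3 held H3K4me1 alone in wild type (3.65 to 5.31) and H3K27ac of 3.36 to 4.56 in Flt3-ITD. H3K27ac was listed at 1 of the 4 in wild type, 2 in Runx1-het and all 4 in NUP98-HOXD13 and both double mutants. Its promoter went from H3K4me1 only (4.22) to both marks (5.84 and 4.92). Ccnd3 had 12 both-mark regions, 4 with wild-type H3K27ac, and Spred1, an inhibitor of RAS signalling, 9, of which 6 had it. Socs3 had 1 both-mark region beside 19 with H3K4me1 only and an unmarked promoter, and Mcl1, a survival gene, had 5, none of them without H3K27ac in wild type. The direction at STAT5 targets was already known from an earlier look at these files.

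Stem and progenitor genes had 108 distal both-mark and 272 H3K4me1-only regions, and 33 of the 108 had H3K4me1 only in wild type (30.6%, against 24.9% near any gene). The opposite change was also more frequent than near any gene: 21 of the 272 H3K4me1-only regions had both marks in wild type (7.72%, against 4.42%). Runx1 had 22, Erg and Myb 13 each and Mecom, which encodes a zinc finger factor of stem cells, 12. At Mecom all 12 held H3K4me1 in wild type and 5 held H3K27ac, and in NUP98-HOXD13 none held H3K27ac and 2 held H3K4me1. At Hlf, a stem cell transcription factor gene with 9, wild type had H3K27ac at 4 and H3K4me1 at 7, and NUP98-HOXD13 at 3 and 2. At Cd34, a progenitor surface protein gene, the 4 both-mark regions 7.40 to 12.4 kb from the start had H3K27ac of 2.69 to 3.89, and none had it in wild type, where 3 held H3K4me1. Mecom and Runx1 also had the most H3K4me1-only regions of the list (38 and 42), then Myb (26) and Meis1 (20). These H3K27ac values lie in the weaker range of the list, whose median was 4.42.

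Granulocyte genes had both marks at 4 of 18 promoters in Flt3-ITD and at none in wild type, beside 22.3% and 15.9% of all promoters, so that the Flt3-ITD count is at the share of all genes. At Mpo the promoter had H3K27ac of 6.79 and H3K4me1 of 5.75 (wild type 5.41 and none). At Prtn3, the proteinase 3 gene, the values were 9.54 and 5.26 (wild type H3K4me1 of 5.87 only). A mark counted here may lie within 1 kb of any annotated start of the gene. Within 1 kb of the RefSeq start of Prtn3 only H3K4me1 was listed in Flt3-ITD, so its H3K27ac lay near another start. At Ctsg, the cathepsin G gene, the promoter had 4.90 and 4.29 (wild type neither). At Csf3r, the G-CSF receptor gene, it had 3.31 and 3.98 (wild type H3K4me1 of 3.38 only). The granule genes Mpo, Prtn3 and Ctsg are normally switched on in early granulocyte precursors. A change in which progenitors were sorted cannot be told apart from a change within cells. Both marks at Ctsg were otherwise found only in Flt3-ITD/NUP98-HOXD13, and those at Mpo and Csf3r in all 5 mutant genotypes. Mpo also had 4 both-mark regions 1.80 to 8.90 kb away, all without H3K27ac in wild type and 3 with H3K4me1 there. Genes of late granules, Camp, Ngp, Lcn2, Cd177 and Mmp8, and S100a8 and S100a9 had neither mark at the promoter. Ltf and Mmp9 of the same list had H3K4me1 only (4.14 and 4.09), where wild type had neither mark. Gfi1, a repressor gene of granulocyte differentiation, had the most distal regions of the list, 7 with both marks and 28 with H3K4me1 only.

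Other myeloid lists had many H3K4me1-only promoters. Monocyte genes had H3K4me1 only at 5 of 17 promoters (Csf1r, Cx3cr1, Ccr2, Fcgr1 and Itgam) and dendritic cell genes at 4 of 15 (H2-Ab1, H2-Eb1, Ciita and Id2), beside 5.54% of all genes. Both lists had them in wild type as well, at 4 and 5. Csf1r, the M-CSF receptor gene, had 4 distal both-mark regions, 3 of which had H3K4me1 only in wild type, and 9 with H3K4me1 only. Among monocyte genes only Itgam had more both-mark regions (5), and Irf8, Ly86 and Ccr2 had 3 each, with 20 H3K4me1-only regions at Irf8. Clec9a, a dendritic cell receptor gene, had both marks at its promoter (8.71 and 8.13) where wild type had H3K4me1 only (5.65). Tcf4, a regulator of plasmacytoid dendritic cells, had 34 H3K4me1-only and 6 both-mark regions.

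Erythroid and megakaryocyte lists had high acetylated shares through few members. Car2, carbonic anhydrase 2, held 6 of the 18 erythroid both-mark regions, 5 with wild-type H3K27ac, and Tfrc, Hbb-bt and Zfpm1 3 each. Gata1, Klf1, Epor, Alas2 and Slc4a1 had neither mark at the promoter. Fli1 held 20 and Mef2c 14 of the 40 megakaryocyte both-mark regions, and 15 and 7 of these had wild-type H3K27ac. Of the 14 promoters of that list 7 had both marks in Flt3-ITD and 8 in wild type, beside 22.3% and 15.9% of all promoters, among them Nfe2 (24.3 and 6.38), Itga2b (6.35 and 6.97) and Pf4 (5.07 and 7.61). Lymphoid promoters with both marks were Rag2 (12.1 and 8.47), a recombinase gene, Dntt (13.3 and 6.33), the terminal transferase gene, Igll1 (10.2 and 6.97) and Lck, a T cell kinase gene (19.2 and 15.1). Ebf1, Pax5 and Cd3e had neither mark, while Foxo1 had 14 and Dntt 12 distal H3K4me1-only regions, and Klrb1c had the most both-mark regions of the T and NK list (6).

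Interferon response genes were mostly marked: 17 of 29 promoters had both marks and 9 H3K27ac only, against 11 and 12 in wild type. Over all promoters both marks went from 15.9% in wild type to 22.3% in Flt3-ITD and H3K27ac only from 23.5% to 20.6%, the same directions. Igtp (9.09 and 4.09), Eif2ak2 (7.08 and 5.30) and Ifit3 (5.59 and 4.41) had both where wild type had H3K4me1 only. Rsad2, an antiviral gene, had 4 distal both-mark regions, 3 of which had wild-type H3K27ac. MAPK feedback and early response genes showed another form, with H3K27ac only at 15 of 21 promoters in Flt3-ITD and 14 in wild type, beside 20.6% and 23.5% of all promoters. Among them were Fosl2 (25.2), Jun (24.3), Dusp2 (23.3), Fosb (22.8), Dusp6 (20.5) and Fos (16.2). Their distal both-mark regions numbered 58, led by Spred1 (9), Dusp2 and Dusp5 (6 each), and 1 of them had neither mark in wild type. Of 25 HOX and cofactor promoters 17 had neither mark (19 in wild type), beside 51.5% of all promoters (55.8% in wild type). Hoxa3 (21.4 and 8.25) and Hoxa9 (15.9 and 3.36) had both.

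On the X chromosome H3K4me1 peaks were few, and acetylated promoters rarely had H3K4me1. Of 270 proximal H3K27ac regions on X 29 held it (10.7%, 7.58 to 15.0%), against 5022 of 9582 on autosomes (52.4%, 51.4 to 53.4%). Distal H3K27ac regions on X held it in 39.5% of cases against 67.9%. The gap was present at matched H3K27ac fold enrichment: between 10 and 20 the proximal shares were 11.7% of 60 regions on X and 65.6% of 2568 on autosomes, and above 20 they were 36.8% of 19 and 76.4% of 1252. The same gap stood in wild type (4.51% of 288 proximal H3K27ac regions on X and 27.1% on autosomes) and in the 4 other genotypes (4.73 to 12.2% on X and 41.7 to 58.0% on autosomes). It was chosen for report after the values were seen. Across all genotypes 0.405 to 0.834% of H3K4me1 peaks lay on X, against 1.25 to 1.55% of H3K27ac peaks. The highest H3K4me1 share was that of Flt3-ITD (789 of 94580). The low number of H3K4me1 peaks thus concerned the whole chromosome and not promoters alone. Its part in the gap and the cause of the gap were not tested.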

How the data were processed

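H3K27ac and H3K4me1 were mapped in sorted stem and progenitor cells, in 39 samples of 12 groups, plus 1 input sample not analysed here. The submitters' processing notes name BWA, MACS2 and the build mm10 (GRCm38). Versions and thresholds were not found in the sources used. Each deposited list pools the samples of a group. Per peak the authors deposited a score (at most 1000), a ratio (fold enrichment over control), a −log10 q and the summit offset. Depth per sample is unknown, so no limit of detection is given.

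Peaks were merged by 1 bp overlap and regions classed in Python 3.11.15 (pandas 2.3.3). Start sites (41421, of 21840 protein-coding genes) came from the basic GENCODE mouse release 21. A region went to the nearest start site within 50 kb. A wild-type mark was present if a peak overlapped the region by 1 bp. Where a region or promoter holds several peaks of a mark, its fold enrichment is the highest. Shares have 95% Wilson intervals. No p-value was computed, since groups have no value per sample. On simulated lists 6000 of 6000 planted regions were classed correctly.

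The 16 gene lists (297 entries, 296 annotated), the classes and the X chromosome result were chosen with earlier results of these data known. Named genes are those of the 5 strongest regions of each class and location, the 10 genes with the most distal regions of both marks and of H3K4me1 only, up to 4 list members with the most of each, the 5 strongest regions per change of class against wild type, and Flt3, Runx1, Nup98 and Hoxd13. Genes named for their promoter marks, for width, or for having no mark, and Hlf, Cd34, Cish and Csf1r beyond their counts, were chosen after the values were seen. RefSeq gave 300 bp promoters, classed by peaks within 1 kb of their start. Alternatives were equal-length lists (36008 peaks), −log10 q of at least 5, overlap of at least 0.5 of the shorter peak, start sites within 2 kb, no merging, autosomes only, and linking within 100 kb.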

Additional observations from a re-analysis of the deposited data

How the results depend on the processing

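Of 106 values recomputed under alternatives, 58 stayed within the limits set for a change and 48 moved. The limit was a fixed factor for counts. For shares it was the Wilson interval of the main value, which is wide for small gene lists. Autosomes only moved none beyond these limits, nor did linking within 100 kb, although the HOX and cofactor share was 14.3% there. With equal-length lists the distal regions were 13725 (H3K27ac only), 17936 (H3K4me1 only) and 10933 (both), and the proximal ones 6941, 906 and 2907 in the same order, so that H3K27ac only outnumbered both marks at either location, unlike in the full lists. With −log10 q of at least 5 they were 13116 (distal H3K4me1 only), 5791 (distal both), 6345 (proximal H3K27ac only), 610 (proximal H3K4me1 only) and 2010 (proximal both), in the same relation, with 6587 distal regions of H3K27ac only. With an overlap of 0.5 the relation turned near start sites alone (5679 with H3K27ac only, 4255 with both). With start sites within 2 kb 7390 proximal regions had H3K4me1 only. In equal-length lists H3K4me1 only was still the largest distal class, but no longer most of the distal regions. The share of distal H3K27ac regions with H3K4me1 was 44.3% (equal length), 46.8% (q), 63.1% (overlap of 0.5) and 69.8% (no merging). That of distal H3K4me1 regions with H3K27ac was 37.9%, 30.6%, 19.8% and 29.3% in that order, and 21.5% at 2 kb.

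At distal both-mark regions, wild type had both marks in 47.4% (equal length), 44.4% (q) and 46.7% (overlap), H3K27ac only in 17.0%, 15.9% and 12.6%, and neither in 15.1%, 16.3% and 16.7%; H3K4me1 only was 20.5% and 23.4% in the first 2. At distal H3K4me1-only regions the same 3 settings gave both marks in 5.40%, 2.39% and 3.52%, H3K4me1 only in 34.0%, 38.99% and 28.4%, H3K27ac only in 4.47%, 1.57% and 2.93%, and neither in 56.1%, 57.0% and 65.1%. At −log10 q of at least 5 the share of H3K4me1 regions with H3K27ac was 30.2% near any gene, 33.8% near stem and progenitor genes, 39.2% near STAT5 targets, 57.1% near interferon genes, 42.9% near mast cell genes and 33.8% near cytokine receptors. Erythroid genes were then at 46.7% (7 of 15; 24.8 to 69.9%) and megakaryocyte genes at 31.6%. Shorter lists hold fewer peaks by construction; the cause of the other moves was not tested.

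No paired analysis was possible because each group has 1 pooled list; no replicate was left out, since the lists are not split by sample. Depth is unknown, so absence of a peak cannot be told apart from too few reads.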
